A study of Mus musculus with 3 samples.

Results

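Protein phosphatases and their subunits were examined in mouse eggs at metaphase II, where meiosis halts until a sperm arrives, after maturation in vitro. Members were chosen by name alone: gene symbols that begin with Ppp and a digit, Ppm1, Dusp, Ptpn, Ptpr or Cdc25. This gave 56 genes of the 6104 gene symbols in the table analysed, with 83 of its 9126 transcript rows. Each gene is represented by the transcript with the highest mean abundance over the libraries, unless another is named. Abundance is in TPM, a share of the library corrected for transcript length and scaled to a total of 1000000.

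There were 3 libraries, all from oocytes of the ICR strain: young oocytes, aged oocytes, and a group labelled aged-sec, which is aged oocytes given secretome, that is, what mesenchymal stem cells of the human umbilical cord release into their medium. All groups started from germinal vesicle oocytes, and maturation in M16 medium took 16 to 18 h, with secretome added 1 to 1 in the aged-sec group. The treatment label gives secretome for every sample, the young and aged ones too, so the groups follow the sample titles. Ages of the mice in weeks or months are not given in the labels used here. The 20 oocytes of a group, taken from 4 mice, were pooled into 1 library. No value has a replicate error, no test was possible, and every difference is one between libraries and not between conditions. TPM are relative, so more of an mRNA per oocyte and less of the other mRNAs cannot be told apart.

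The table analysed holds a selected part of each library. Its lowest aged over young ratio is 1.2 and none of its TPM values is 0, so every transcript in it was higher in aged than in young oocytes by the way the table was made. An aged value that is high by chance also enters more easily, which draws aged-sec over aged ratios below 1 without any effect. A young value that is low by chance enters more easily too, which draws aged-sec over young ratios above 1 in the same way. Of all TPM, the listed transcripts held 22.9% (young), 32.5% (aged) and 32.1% (aged-sec). Read depth cannot be recovered from TPM, so no counting interval is given. Of 13 oocyte marker genes 4 were listed, led by the oocyte growth factor Bmp15 at 585 TPM in the young, 817 TPM in the aged and 799 TPM in the aged-sec library. Predicted variants of the zona protein gene Zp2 (20.5, 39.3 and 20.5 TPM) and of the growth factor gene Gdf9 (4.36, 6.81 and 4.46 TPM) were near young in aged-sec oocytes, and the fourth, Ddx4, did not pass 0.69 TPM. Of 13 cumulus and granulosa cell markers 3 were listed, with summed levels of 1.21, 2.41 and 1.79 TPM in the same order, and of 6 blood and immune markers 0 were listed. Other markers were not analysed here.

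Phosphatases remove the phosphate groups that kinases add, and in the oocyte they set the balance that holds meiosis at its arrest points. Cdc25 enzymes activate the cyclin-dependent kinase Cdk1 by removing inhibitory phosphates. PP1 and PP2A, the main serine and threonine phosphatases, act as a catalytic subunit joined to one of many regulatory subunits and oppose Cdk1, and PP2A with a B55 subunit is itself held off in M phase through the kinase Mastl and its targets Ensa and Arpp19. Calcineurin is a calcium-activated phosphatase, PPM enzymes work as single chains that need metal ions, and the Dusp, Ptpn and Ptpr families act on phosphotyrosine, with several Dusp enzymes directed at MAP kinases.

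The 56 members were 36.4% of the 154 protein-coding genes with such names in the RefSeq annotation, against 27.3% of all 21900 protein-coding genes. The listed share was 6 of 11 for the PP4, PP5 and PP6 genes, 11 of 21 for receptor tyrosine phosphatases and 7 of 16 for PP2A, and 10 of 41 for PP1 regulatory subunits. Of the 4 PP1 catalytic genes 1 was listed, of the 5 calcineurin genes 1, and of the 3 Cdc25 genes 2. These shares count genes with at least 1 transcript that passed the aged over young selection, and the other 98 genes, Cdc25b among them, were not analysed here.

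**Figure D1:**
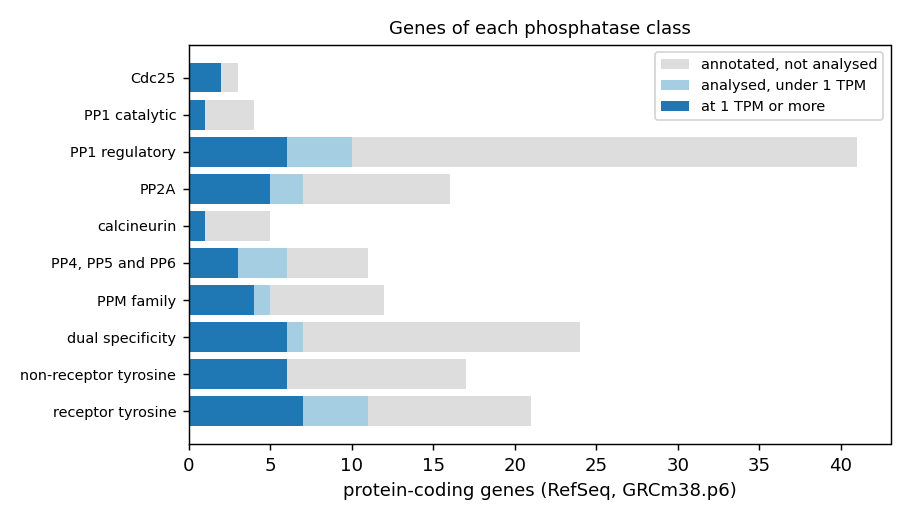
Number of protein-coding genes in each phosphatase class on the x axis, as stacked bars that start at 0: genes that reached 1 TPM in some library (dark blue), analysed genes below that level (light blue) and annotated genes not analysed (grey). PP1 regulatory subunits were the class with the most annotated genes, 41, of which 6 reached 1 TPM.

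Translation of stored mRNA in maturing oocytes is steered by short elements near the 3′ end. The cytoplasmic polyadenylation element (TTTTAT or TTTTAAT in DNA letters) recruits the machinery that lengthens the poly(A) tail, and the polyadenylation signal (AATAAA or ATTAAA) sets the end of the mRNA. Because cDNA in this assay is primed on the poly(A) tail, the ends of the members were read from GENCODE transcripts of release M21 that are paired with the same curated RefSeq accession. Ends could be read for 31 of the 56 members. The first element was searched in the last 100 bases and the signal in the last 40, on the RNA strand only. A TTTTAT can share bases with a following ATTAAA, and a TTTTAAT with a following AATAAA or ATTAAA.

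A cytoplasmic polyadenylation element was present in 8 of the 31 members, or 25.8%, against 21.5% of 3331 listed genes and 18.0% of 24935 coding transcripts with a curated match. Among genes that reached 1 TPM in some library the order was the reverse, 5 of 24 members, or 20.8%, against 23.3% of 2446 listed genes. The polyadenylation signal was present in 28 of the 31 members, or 90.3%, against 77.4% and 74.5%. The genes with the element were Ptpn2, Ppp1r14b, Ppp2r3c, Dusp19, Ppp2r2b, Ppm1e, Ppp2r2a and Ptprz1. Of these Ppm1e, Ppp2r2a and Ptprz1 did not pass 0.29 TPM in any library. Windows of 30 bases are shown for those of PP1, PP2A and the Dusp family whose ends are printed here, with the element in capitals, 5′ to 3′.

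Ppp1r14b: ttttgtgtTTTTATattgactctgcggcgc
Ppp2r3c: cctttgtgTTTTATaaaagttcgtcttaaa
Ppp2r2a: aggagaaaTTTTATgtaataaagttactgt
Dusp19: cactttttTTTTATtttgacttttacattt

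The element began 68 bases from the 3′ end in Ppp1r14b, 25 bases in Ppp2r3c, 34 bases in Ppp2r2a and 45 bases in Dusp19. For comparison, the ends of Ppp1r10, which had the largest aged over young ratio among members that reached 10 TPM, and of the PP1 and PP2A catalytic subunits held the polyadenylation signal (capitals) and none of the searched element letters in the last 100 bases.

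Ppp1r10: acattaatAATAAAcagtggaaagagaagc
Ppp1ca: gtctcttgAATAAAggtcaaagctggattc
Ppp2ca: ctgtactcAATAAActgtaaacaaatatac

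Genes with and without the element had like ratios between libraries. Over the listed genes with a readable end and at least 1 TPM in 1 library, the median log2 aged over young ratio was 0.51 for the 571 with the element and 0.53 for the 1875 without it. The median log2 aged-sec over aged ratio was −0.20 with it and −0.24 without it. Among members these medians were 0.52 over 5 genes and 0.58 over 19 genes with age, and −0.11 and −0.18 for aged-sec over aged. These medians describe the libraries, and a letter match is not a known site.

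Abundance was concentrated in few members. The 56 representative transcripts summed to 592 TPM in the young, 868 TPM in the aged and 698 TPM in the aged-sec library. Ptpn2 alone held 34.5%, 33.8% and 31.7% of these sums, and the 3 most abundant members (Ptpn2, Ppp1r12a and Dusp12) held 62.2%, 58.0% and 56.8%. At least 1 TPM in 1 library was reached by 41 members and at least 10 TPM by 16, while 15 stayed under 1 TPM everywhere, between 0.02 and 0.98 TPM. Of the members 38 were represented by curated transcripts, 17 by predicted ones and 1 by a second annotated copy.

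**Figure D2:**
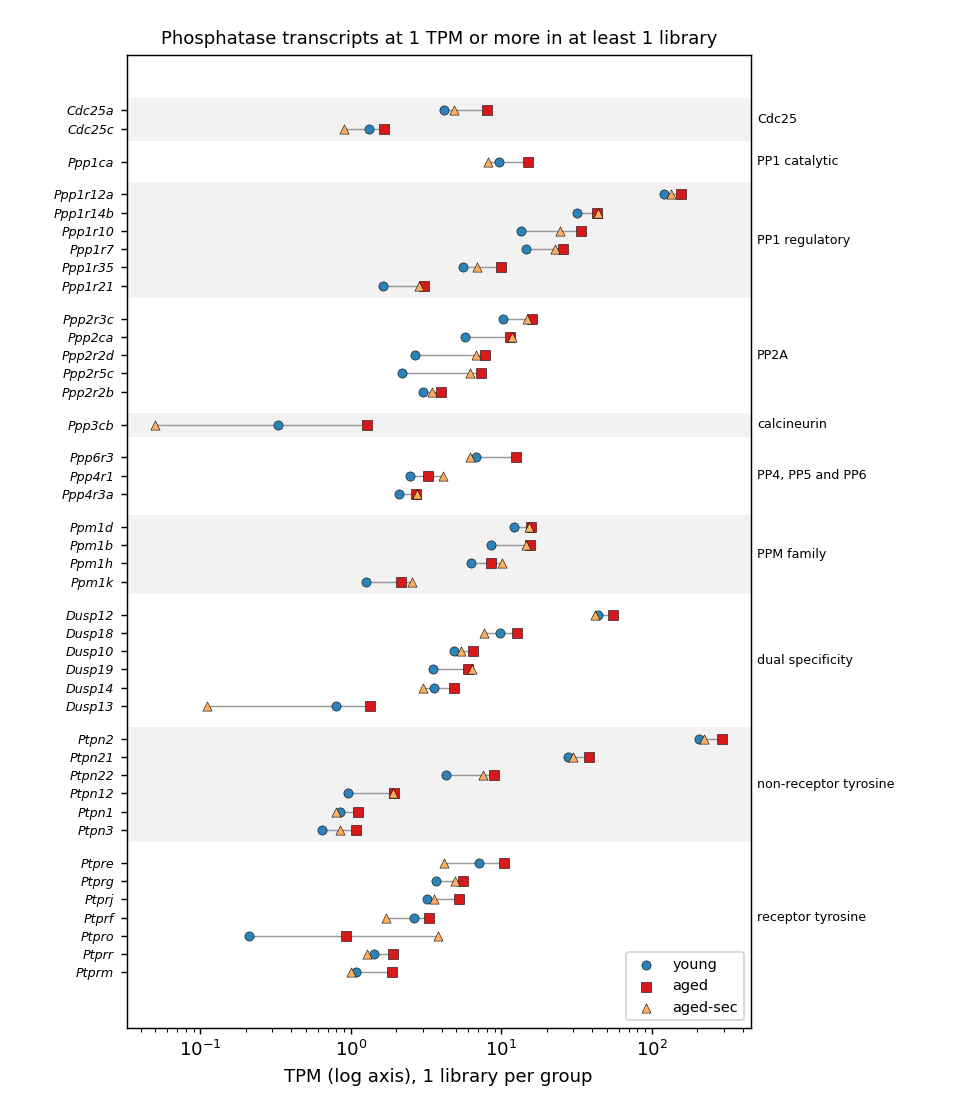
TPM on a log axis for the 41 members that reached 1 TPM in some library, grouped by class, with 1 point per library (blue circle young, red square aged, orange triangle aged-sec) and a grey line over their range. Ptpn2 and Ppp1r12a lie above 100 TPM in all 3 libraries, and Ppp3cb, Dusp13 and Ptpro show the widest spread.

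Log2 ratios below have 0.5 TPM added to each value, which shrinks ratios of low transcripts. The size rule is a 2-fold difference in either direction, a log2 ratio of 1 or −1, together with 10 TPM or more in whichever library of the pair is higher. With age it was met by 1 of the 15 members with enough TPM, Ppp1r10, or 6.67%, against 15.9% of 1759 genes in the whole table. The median log2 aged over young ratio of the 41 members at 1 TPM or more was 0.55, against 0.56 over 4320 genes. Between aged-sec and aged oocytes the rule was met by 1 of 16 members, Ptpre, on the lower side, or 6.25%, against 2.18% of 1789 genes. Ptpre passed the abundance part of the rule through the aged library alone, at 10.34 TPM, where it was highest, so this call is a description and supports nothing about the members. On the higher side it was met by 0 of 16 members, against 0.168% of genes. The median log2 aged-sec over aged ratio was −0.23 for members and −0.23 for all genes. When the listed genes were scaled to a common median ratio, neither gene met the rule in these pairs: Ppp1r10 had 0.60 with age and Ptpre had −0.95 against aged. Such scaling uses only genes chosen for a higher aged value, so it lowers their age ratios by construction. With so few members past the rule, the shares stand on 1 gene each.

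The aged-sec value was below the aged value in 33 of 41 members (80.5%), against 73.8% of the 4320 genes, and above it in 8 (19.5%), against 26%. That scaling, which makes log2 aged-sec over aged ratios higher by 0.29, left 20 of the 41 members below aged, against 46.6% of genes. Directions given below, and statements that a value is near young or aged, are therefore those of TPM as deposited. Class counts after scaling are given with them. Aged-sec oocytes were above young in 28 of 41 members (68.3%), against 79.7% of genes, and below young in 13 (31.7%), against 20%. After scaling 25 of 41 were below young, against 49.9% of genes. The median log2 aged-sec over young ratio was 0.24 for members and 0.38 for all genes. In that pair the size rule was met by 0 of 12 members, against 14.2% of 1609 genes on the higher side and 0.311% on the lower. Comparisons with aged share the aged library, and those with young share the young library.

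**Figure D3:**
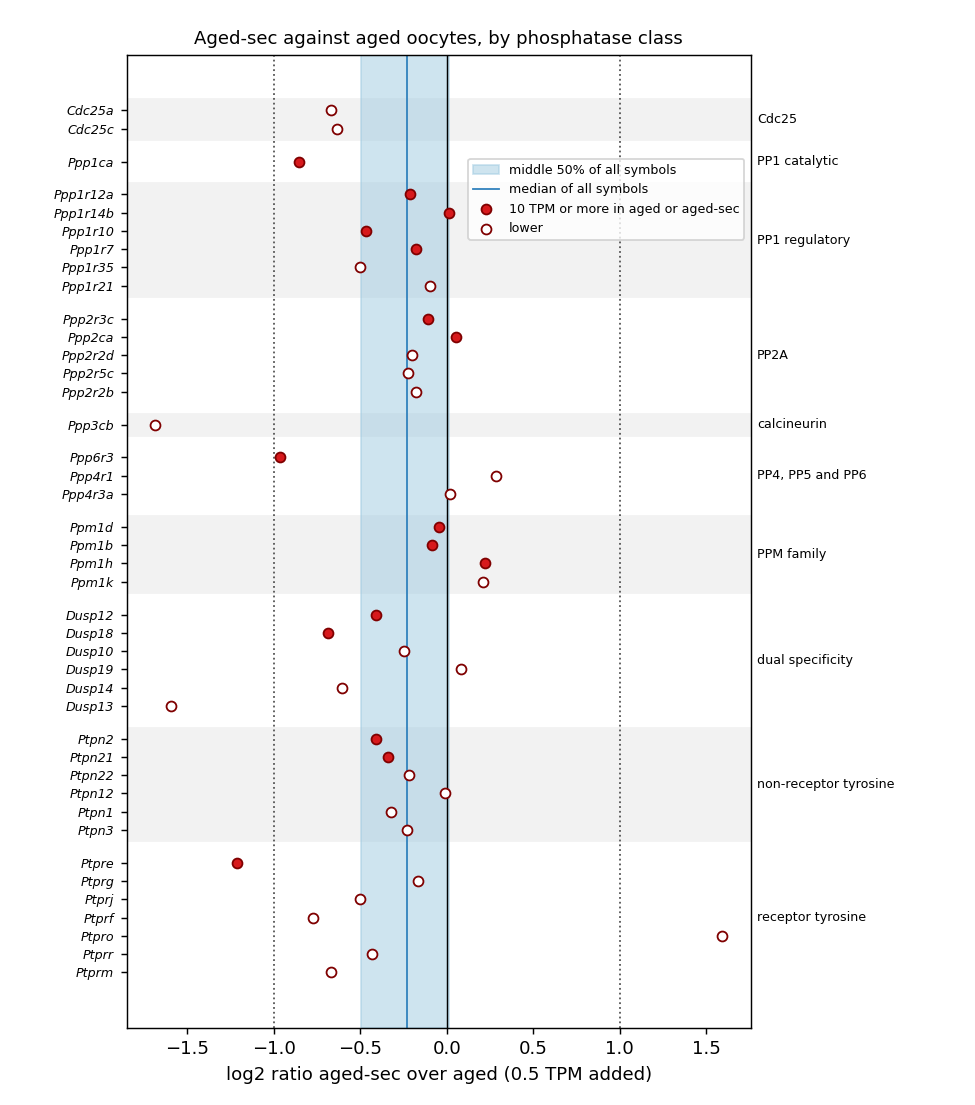
Log2 ratio of aged-sec over aged (0.5 TPM added) on the x axis for the same 41 members by class, filled points having at least 10 TPM in aged or aged-sec. The blue band is the middle 50% of all 4320 genes (−0.50 to 0.01) with their median as a line, and dotted lines mark the size rule at −1 and 1. Ptpre is the filled point beyond −1.

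Cdc25 phosphatases were low. Cdc25a, which acts on cyclin-dependent kinases at several cell cycle steps, stood at 4.18 TPM in the young, 7.98 TPM in the aged and 4.83 TPM in the aged-sec library. Cdc25c, an activator of Cdk1 at entry into M phase, stood at 1.32, 1.67 and 0.90 TPM. Both were highest in the aged library, and among the aged-sec values Cdc25a lay near its young level and Cdc25c below it. Both were below aged after scaling as well.

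The PP1 catalytic subunit gene Ppp1ca stood at 9.65 TPM in the young, 15.04 TPM in the aged and 8.10 TPM in the aged-sec library. Its log2 aged-sec over aged ratio was −0.85, short of the size rule, or −0.58 after scaling, and the aged-sec value was below the young one. The table holds this accession a second time with the same values, so reads may have been divided between identical copies and the level is uncertain.

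The PP1 regulatory subunits held the second most abundant member and the only one that met the size rule with age. Ppp1r12a, the targeting subunit of myosin phosphatase, stood at 121 TPM in the young, 155 TPM in the aged and 134 TPM in the aged-sec library. Ppp1r10, a nuclear targeting subunit also called PNUTS, stood at 13.4, 33.8 and 24.3 TPM. Its log2 ratio was 1.30 for aged over young, −0.46 for aged-sec over aged and 0.83 for aged-sec over young. Ppp1r10 was thus intermediate in the aged-sec library and remained above young there.

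Ppp1r14b, a member of a family of phosphorylation-dependent PP1 inhibitors, stood at 31.9 TPM in the young, 43.2 TPM in the aged and 43.5 TPM in the aged-sec library. Ppp1r7, the conserved regulator SDS22, stood at 14.6, 25.5 and 22.5 TPM. Both had aged-sec values closer to aged than to young. Ppp1r35, a centrosomal protein, stood at 5.54, 9.87 and 6.84 TPM. Ppp1r21, an endosomal protein, stood at 1.64, 3.07 and 2.84 TPM. In aged-sec oocytes 6 of 6 PP1 regulatory subunits at 1 TPM or more were above young, against 79.7% of genes, or 4 of 6 after scaling. Of the 6 genes 5 were below aged, against 73.8% of genes, or 2 after scaling. After scaling 46.6% of all genes were below aged and 49.9% below young. The other 4, Ppp1r16b, Ppp1r13l, Ppp1r3f and Ppp1r37, were between 0.02 and 0.48 TPM.

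PP2A transcripts had a median log2 aged over young ratio of 0.94 over 5 genes, against 0.56 over all genes. After scaling it was 0.27, against −0.067. It was the highest among classes with more than 1 member at 1 TPM. That ranking uses the ratio by which transcripts were selected, and only 7 of 16 PP2A genes were listed, so it describes the listed transcripts. The representative PP2A transcripts stayed close to aged in the aged-sec library. Ppp2ca, the catalytic subunit, stood at 5.68 TPM in the young, 11.4 TPM in the aged and 11.8 TPM in the aged-sec library. Its log2 aged over young ratio of 0.94 and aged-sec over young ratio of 0.99 both lay just short of the size rule. Without the added 0.5 TPM these ratios were 2.00 and 2.08. After scaling the log2 ratios were 0.27 and 0.60.

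The largest age ratios among PP2A genes belonged to regulatory subunits that had too few TPM for the size rule. Ppp2r5c, a B56 subunit, stood at 2.19 TPM in the young, 7.27 TPM in the aged and 6.16 TPM in the aged-sec library, a log2 aged over young ratio of 1.53. Ppp2r2d, a B55 subunit of the kind inhibited by phosphorylated Ensa and Arpp19, stood at 2.65, 7.80 and 6.73 TPM, a log2 ratio of 1.40. Both remained high in the aged-sec library, at 2.81 and 2.54 times their young values.

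Ppp2r3c, a calcium-binding B″ subunit, stood at 10.2 TPM in the young, 16.0 TPM in the aged and 14.8 TPM in the aged-sec library. Ppp2r2b, another B55 subunit, stood at 3.03, 3.96 and 3.45 TPM. Log2 aged-sec over aged ratios of the 5 representative PP2A transcripts lay between −0.22 and 0.05, within the middle 50% of all genes or just above it. The second transcripts of Ppp2r5c and Ppp2r3c, both under 3 TPM, had −1.17 and −1.04. As deposited 4 of the 5 representative transcripts were below aged, against 73.8% of genes, and after scaling 0 of 5, against 46.6%. Ppp2r5e and Ppp2r2a were under 1 TPM, at no more than 0.58 TPM.

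Calcineurin was represented by a predicted variant of Ppp3cb, a catalytic subunit, at 0.33 TPM in the young, 1.27 TPM in the aged and 0.05 TPM in the aged-sec library. Its log2 aged-sec over aged ratio of −1.69 was the lowest of the 41 members, at a level near the floor of the table, and was −1.66 after scaling. RefSeq annotates 8 mRNAs of this gene, of which this variant alone was analysed.

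Among the PP4 and PP6 subunits, Ppp6r3, a regulatory subunit of PP6, stood at 6.76 TPM in the young, 12.5 TPM in the aged and 6.18 TPM in the aged-sec library, a log2 aged-sec over aged ratio of −0.96. Ppp4r1, a PP4 regulatory subunit, stood at 2.46, 3.27 and 4.09 TPM, and had its highest value in aged-sec oocytes. Ppp4r3a, another PP4 subunit, stood at 2.09, 2.71 and 2.76 TPM. Ppp4r3b, Ppp4r4 and Ppp6r2 did not pass 0.73 TPM. Of the 3 genes at 1 TPM or more 1 was below aged and 2 above, as deposited and after scaling. Of all genes 73.8% were below aged as deposited and 46.6% after scaling. For Ppp4r3a the difference was 0.02 on the log2 scale.

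PPM phosphatases were close to aged in the aged-sec library. Ppm1d, known as Wip1 and an off-switch of the DNA damage response, stood at 12.0 TPM in the young, 15.7 TPM in the aged and 15.2 TPM in the aged-sec library. Ppm1b, a PP2C enzyme that acts on stress and inflammatory kinases, stood at 8.55, 15.4 and 14.5 TPM. Ppm1h stood at 6.24, 8.52 and 10.02 TPM.

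Ppm1k, the mitochondrial phosphatase that activates branched-chain ketoacid dehydrogenase, stood at 1.26, 2.14 and 2.56 TPM. Of the 4 PPM genes at 1 TPM or more, Ppm1h and Ppm1k were above aged and Ppm1d and Ppm1b below it, against 73.8% of genes below. In aged-sec oocytes all 4 were above young, against 79.7% of genes. After scaling all 4 were above aged, and 3 of 4 above young. Of all genes 46.6% were then below aged and 49.9% below young. As deposited their median log2 aged-sec over aged ratio was 0.09. Ppm1e stood at no more than 0.29 TPM.

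Of the 6 dual specificity phosphatases at 1 TPM or more, 5 were below aged in the aged-sec library, against 73.8% of genes. Their median log2 ratio was −0.51, against −0.23 over all genes. They were below young in 4 of 6, against 20% of genes. After scaling they were below aged in 4 of 6, against 46.6% of genes, with a median of −0.24. Below young they were then 5 of 6, against 49.9% of genes. Dusp12, an atypical member with a zinc-binding domain, was the most abundant at 43.5 TPM in the young, 55.1 TPM in the aged and 41.5 TPM in the aged-sec library. Dusp18, another atypical member, stood at 9.73, 12.7 and 7.68 TPM, a log2 aged-sec over aged ratio of −0.68. Dusp14 stood at 3.58, 4.87 and 3.03 TPM. For the representative transcripts of all 3 genes the aged-sec value was the lowest of the 3 libraries. The second transcript of Dusp12 stood at 5.4, 10.2 and 7.45 TPM, and the Dusp12 sum was 48.9 TPM in both the young and aged-sec libraries.

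Dusp19, an atypical member linked to JNK signalling, was the exception among the genes at 1 TPM or more. It stood at 3.50 TPM in the young, 6 TPM in the aged and 6.39 TPM in the aged-sec library. Dusp13 stood at 0.79, 1.34 and 0.11 TPM, a log2 aged-sec over aged ratio of −1.59 at low abundance. Of the 10 classical MAP kinase phosphatases of this family 2 were listed. Dusp10, which acts on JNK and p38, stood at 4.85, 6.49 and 5.39 TPM. Dusp2, a nuclear phosphatase of ERK, stood at 0.19, 0.38 and 0.65 TPM, so it too was above aged, at a level under 1 TPM. The study's title names ERK1/2 signalling, and the other classical members were not analysed here.

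Non-receptor tyrosine phosphatases were below aged in the aged-sec library in 6 of 6 genes, with a median log2 ratio of −0.27, close to the 73.8% and −0.23 over all genes. After scaling it was 4 of 6 with −0.048, against 46.6% of genes. Ptpn2, which dephosphorylates JAK kinases and growth factor receptors, was the most abundant member at 204 TPM in the young, 293 TPM in the aged and 221 TPM in the aged-sec library. Ptpn21, a cytoskeleton-associated FERM domain phosphatase, stood at 27.6, 38.2 and 30.1 TPM. In aged-sec oocytes both were, as deposited, nearer to young than to aged, with log2 aged-sec over young ratios of 0.11 and 0.12. Their log2 aged-sec over aged ratios were −0.41 and −0.34, which the scaling makes higher by 0.29, so this nearness depends on the scaling.

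Ptpn22, known for restraining antigen receptor signalling in lymphocytes, stood at 4.25, 8.89 and 7.59 TPM. Its transcript is a second annotated copy of the accession, so its level is uncertain. Ptpn12, a phosphatase of focal adhesion proteins, stood at 0.96, 1.93 and 1.91 TPM. Ptpn1, which acts on the insulin receptor, stood at 0.84, 1.11 and 0.79 TPM. Ptpn3 stood at 0.64, 1.08 and 0.85 TPM. These last 3 were all under 2 TPM.

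Of the 7 receptor tyrosine phosphatases at 1 TPM or more, 6 were below aged in the aged-sec library, against 73.8% of genes. Their median log2 ratio was −0.50, against −0.23 over all genes. After scaling they were below aged in 5 of 7, against 46.6% of genes, with a median of −0.24. Ptpre, an enzyme with receptor and cytoplasmic forms that acts on Src family kinases, stood at 7.04 TPM in the young, 10.3 TPM in the aged and 4.18 TPM in the aged-sec library. Its log2 ratios were 0.52 for aged over young, −1.21 for aged-sec over aged and −0.69 for aged-sec over young. The aged-sec value of Ptpre was the lowest of the 3, and after scaling its log2 aged-sec over young ratio was −1.11. RefSeq annotates 5 mRNAs of the gene, of which 1 was analysed, so the value describes that transcript.

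Ptprg stood at 3.66 TPM in the young, 5.57 TPM in the aged and 4.91 TPM in the aged-sec library. Ptprj, also called CD148, stood at 3.20, 5.25 and 3.57 TPM. Ptprf, the LAR receptor of cell adhesion sites, stood at 2.64, 3.30 and 1.72 TPM. Ptprf, like Ptpre, Ptprr and Ptprm, had its lowest value in aged-sec oocytes. These were 4 of 7 receptor genes below young, against 20% of genes. After scaling it was 6 of 7, against 49.9% of genes.

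Ptprr, which acts on ERK family kinases, stood at 1.43, 1.90 and 1.28 TPM. Its second transcript stood at 0.42, 0.89 and 0.50 TPM and was lowest in the young library. Ptprm, a homophilic adhesion receptor, stood at 1.08, 1.88 and 1.00 TPM. For both genes the young and aged-sec values were close, at low abundance. Ptpro, known from kidney podocytes, was the one receptor gene above aged among those at 1 TPM or more. It stood at 0.21 TPM in the young, 0.92 TPM in the aged and 3.79 TPM in the aged-sec library. Its log2 aged-sec over aged ratio of 1.60 was the highest of the 41 members, below the abundance the size rule asks for. Ptprq, Ptprd, Ptprs and Ptprz1 stayed between 0.03 and 0.98 TPM. At these low levels Ptprq, Ptprd and Ptprs were also above aged in the aged-sec library, and Ptprz1 was below.

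Several members had more than 1 transcript in the table, and for some of them the transcripts differed in pattern. There were 14 such genes after 2 identical second copies were set aside. For Ppp6r3 the representative transcript (XM_006531797) stood at 6.76 (young), 12.5 (aged) and 6.18 TPM (aged-sec), while NM_029456 stood at 0.97, 5.57 and 5.53 TPM. The first was back at the young level in the aged-sec library and the second stayed at the aged level. The other 2 transcripts of Ppp6r3 stood at 0.87, 1.64 and 0.39 TPM and at 1.03, 1.46 and 0.11 TPM. The 4 together summed to 9.63, 21.2 and 12.2 TPM, a log2 aged over young ratio of 1.10, which meets the size rule that the representative transcript alone did not meet.

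For Ppp2r5c the second transcript (XM_006515922) stood at 0.32, 2.66 and 0.90 TPM, and the sum of both was 2.51, 9.93 and 7.06 TPM, a log2 aged-sec over aged ratio of −0.46. For Ppp2r3c the second transcript (XM_030246828) stood at 0.36, 0.82 and 0.14 TPM. For Ppp1r12a the sum of 3 transcripts was 147, 187 and 156 TPM, with the curated NM_001368737 at 25.4, 31.0 and 21.4 TPM. For Dusp12 the sum of 2 transcripts was 48.9, 65.3 and 48.9 TPM. The 8 listed transcripts of Ptprd, a neuronal adhesion receptor, were each under 1 TPM and summed to 1.37, 2.90 and 2.01 TPM. Transcripts of 1 gene share most of their sequence, so a program that estimates TPM can move reads among them, and only part of each gene's transcripts was analysed.

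**Figure D4:**
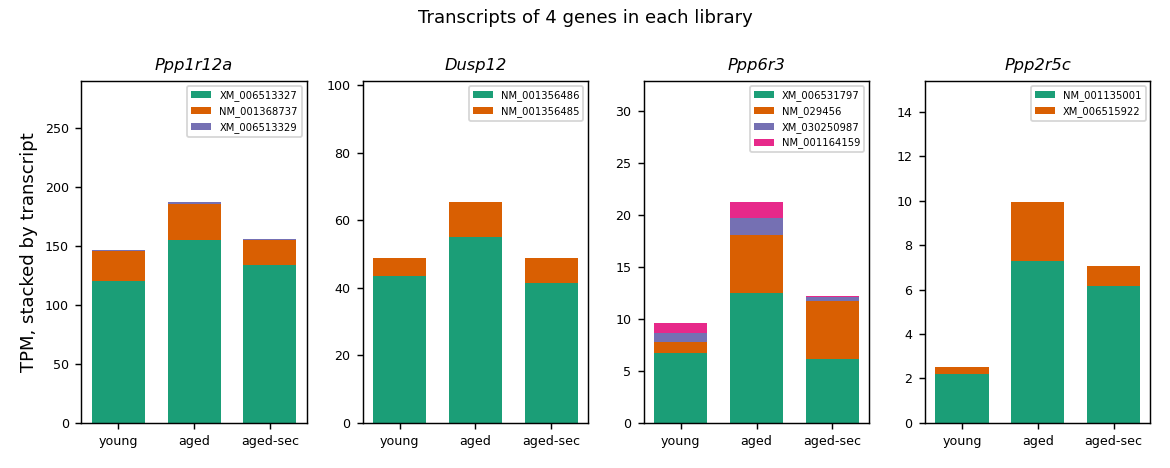
TPM in each library as bars that start at 0, stacked by transcript, for Ppp1r12a, Dusp12, Ppp6r3 and Ppp2r5c, each panel with its own axis. In Ppp6r3 the orange part (NM_029456) is small in young and alike in aged and aged-sec oocytes, while the green part (XM_006531797) is largest in aged.

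Of partners of PP1 and PP2A that carry other names 0 of 12 met the size rule with age, against 15.9% of genes, and 0 of 13 met it between aged-sec and aged, against 2.18% on the lower and 0.168% on the higher side. Of 43 such genes 23 were listed, all at 1 TPM or more, with a median log2 aged over young ratio of 0.54, against 0.56 over all genes. Mastl, the kinase that switches off PP2A with B55 in M phase, stood at 65.3 TPM in the young, 114 TPM in the aged and 109 TPM in the aged-sec library. Arpp19, a Mastl target that binds and inhibits this PP2A, stood at 46.6, 56.1 and 52.2 TPM. Cip2a, a PP2A inhibitor protein, stood at 46.4, 72.8 and 57.1 TPM. Of the 23 genes 18 were below aged in aged-sec oocytes and 5 above, near the 73.8% of all genes that were below. After scaling 11 were below and 12 above, against 46.6% of all genes below. For aged-sec over young 1 of 12 met the rule on the higher side, against 14.2% of genes: Cdk1, with 3.66 TPM (young) and 10.2 TPM (aged-sec). Cdk1 passed the abundance part through the aged-sec library alone, so this call is a description.

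Of 54 protein phosphatase genes and relatives outside the member names 21 were listed, 17 of them at 1 TPM or more. With age 2 of 6 met the size rule, against 15.9% of genes. They were Mtmr2, a myotubularin lipid phosphatase, at 4.48 and 18.1 TPM, and Rpap2, an RNA polymerase II phosphatase, at 8.24 and 18.9 TPM. Both passed the abundance part of the rule through the aged library alone, so these calls are descriptions and support nothing about the list. Between aged-sec and aged oocytes 0 of 6 met the size rule. For aged-sec over young 2 of 6 met it on the higher side, against 14.2% of genes: Mtmr2, with a log2 ratio of 1.58, and Ublcp1, a nuclear proteasome phosphatase, which stood at 12.8 and 26.2 TPM. In this pair Mtmr2 had enough TPM in the aged-sec library alone. The most abundant was Ptp4a1, a prenylated phosphatase, at 233 TPM in the young, 280 TPM in the aged and 360 TPM in the aged-sec library. Of the 17 genes 10 were below aged and 6 above, against 73.8% of all genes below. After scaling 7 were below and 10 above, against 46.6% of all genes below. As deposited the median log2 aged-sec over aged ratio was −0.20, against −0.23 over all genes.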

How the data were processed

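Per the file headers, the authors deposited TPM of RefSeq mRNAs for the 3 libraries in a single table, with ratio columns that divide aged by young and aged-sec by aged. The deposited ratios match these divisions to 6.6e-07. Per the labels' protocols, cDNA was made with SMART-Seq2 chemistry and libraries with a transposon-based method. Not given in the sources used here are the aligner, the quantifier and the build, and no coordinates are printed.

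TPM were used as deposited. Members followed the naming rule, with 1 transcript per symbol by highest mean TPM. Log2 ratios had a pseudocount of 0.5 TPM, and the size rule asked for 1 on the log2 scale and 10 TPM. The counting of calls was tested on simulated data. Genes and mRNAs were counted in the RefSeq annotation of GRCm38.p6, in which all 56 members matched by symbol. The 3′ ends came from GENCODE M21 transcripts with at least 100 bases of 3′ UTR, and a GENCODE end may differ from the RefSeq one. Named genes were members past the size rule, the 3 most abundant of each class, Cdc25 genes, and the 8 highest and 8 lowest aged-sec over aged ratios from 10 TPM. Further members were named after their values were seen. The members and lists were chosen with earlier results of these data known. Python 3.11.15 and pandas 2.3.3 were used.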

Additional observations from a re-analysis of the deposited data

How the results depend on the processing

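When the 3 libraries were scaled to a common median ratio, aged over young ratios became lower by 0.72 and aged-sec over aged ratios higher by 0.29 on the log2 scale, and the members' median log2 ratios changed sign to −0.039 for aged over young, 0.032 for aged-sec over aged and −0.10 for aged-sec over young. All genes then had −0.067, 0.039 and 0.0024. Under that scaling 0 of 16 members met the size rule with age, against 2.86% of genes. On the lower side 0 of 16 met it for aged-sec over aged (1.23% of genes). For aged-sec over young 1 of 16, Ptpre, met it on the lower side (1.42% of genes). With no filter on low values 6 of 56 members met the rule with age (13.2% of genes), 3 on the lower side of aged-sec over aged (5.10%) and 1 on the higher (0.393%), and 5 for aged-sec over young (9.73% higher and 0.836% lower). With 5 TPM in the higher library 3 of 25 met it with age (Ppp1r10, Ppp2r2d and Ppp2r5c, against 17.1% of genes) and 2 of 22 for aged-sec over young (13.8%), whose median became 0.38. With a pseudocount of 0.1 TPM 2 of 16 members were lower against aged (Ptpre and Ppp6r3), against 2.57% of genes. At that setting 1 of 12, Ppp2ca, was higher for aged-sec over young, against 15.7% of genes. With the transcripts of a gene summed 2 of 15 met the rule with age (Ppp1r10 and Ppp6r3), against 16.7% of genes. In these calls Ppp2r2d, Ppp2r5c, Ppp6r3 and Ppp2ca had enough TPM only in the higher library of the pair, so the calls are descriptions. The other 33 of the 49 values kept their direction, with counts within 1.5 times and medians within 0.1 of those reported. No paired analysis was possible because each group had 1 library. The unknown depth limits what can be said of members under 10 TPM.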
